A study of Mus musculus with 16 samples.

Results

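Antigen presentation by B cells was followed here through 10 genes, Cd1d1 for lipid presentation and H2-Aa, H2-Ab1, H2-Eb1, Cd74, Ciita, H2-DMa, H2-DMb2, H2-Oa and H2-Ob for the MHC class II pathway. They were taken from the RNA-seq table by gene symbol, and 10 of the 10 symbols were found among 27928 genes. Follicular (FO, CD21lo CD23hi) and marginal zone (MZ, CD21hi CD23lo) B cells were sorted by FACS from the spleens of young adult C57BL/6 mice. The mice were WT or Gtf2i fl/flxCD19cre+ (cKO), in which Cre active in the B lineage deletes the floxed Gtf2i gene that encodes the transcription factor TFII-I. The labels give the control mice as WT only, without saying whether they carried Cre. There were 2 RNA libraries in each of the 4 groups (WT FO, WT MZ, cKO FO and cKO MZ), with 21546552 to 25083552 reads on genes. Nothing used here says which libraries came from the same mouse or that they came from separate mice, so p-values measure only the spread between these libraries. In bulk RNA, fewer cells of a type and less RNA per cell cannot be told apart.

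MHC class II molecules are pairs of an α and a β chain that carry peptides from endosomes to the surface for CD4+ T cells. The invariant chain, encoded by Cd74, blocks the peptide groove until proteases degrade it, and H2-DM then exchanges its last fragment (CLIP) for peptides, while H2-O, found in B cells, holds H2-DM back. CIITA is the coactivator that drives these genes through RFX and NF-Y bound at their promoters. CD1d resembles class I molecules, pairs with β2-microglobulin and presents lipids to natural killer T cells, and MZ B cells are known for high CD1d on their surface.

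The markers of the sort followed the labels. Cr2, which encodes CD21, was at 22942 to 26803 normalized counts in the 4 FO libraries and at 86953 to 97087 in the 4 MZ libraries. Fcer2a, which encodes CD23, was at 24802 to 41973 in FO and at 3069.5 to 6708 in MZ. Gtf2i was at 2039.8 and 1992 normalized counts in WT FO, at 2864 and 2471 in WT MZ, at 1523 and 1531 in cKO FO and at 1782 and 1889 in cKO MZ. Each cKO library was below both WT libraries of its subset, although the difference did not pass the adjusted p over all genes (log2 difference over both subsets -0.47 ± 0.0672 (SE), limma adjusted p = 0.0793). The counts are summed over the whole gene, deleted exons included. The X-inactivation transcript Xist was at 25930 to 47002 normalized counts in the 4 WT libraries and at 21.7 to 89.7 in 3 cKO libraries, while the Y-linked Ddx3y was at 0.998 to 6.34 in WT and at 2682 to 5514 in cKO. The library labelled cKO FO replicate 1 held both (Xist 14748, Ddx3y 2682) and so stood apart. Values without this library are given for some of the results, and the other cKO FO values include it. Sex and genotype cannot be told apart in these libraries.

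The 10 genes took between 2.13% and 2.89% of all reads on genes, so counting error was small. The share was 2.63% to 2.89% in the 4 FO libraries and 2.13% to 2.35% in the 4 MZ libraries, without overlap. The most abundant genes weigh most in it. Cd74 alone took 0.987% to 1.10% in FO and 0.813% to 0.949% in MZ, and its difference did not pass the test described below. The fewest reads on any of the 10 genes in any library were 881, for Cd1d1. Levels per kilobase of exon were used to set genes beside each other, with all annotated exons of a gene counted, so that long rare transcripts lower the level of a gene such as H2-Ob. Cd74 stood highest, at 148183 ± 12336 normalized counts per kb in WT FO and 121373 ± 16143 in WT MZ (SD, n = 2 each). Next came the chains, with H2-Eb1 at 43404 ± 2486, H2-Ab1 at 36384 ± 4233 and H2-Aa at 36203 ± 430 per kb in WT FO (SD, n = 2), of which the last pair lay within their spread of each other. H2-Ob (9370 ± 160 per kb) and H2-DMb2 (9094 ± 296) followed in WT FO and lay within the spread of each other, then H2-Oa (3696 ± 42.1), H2-DMa (3072 ± 181), Ciita (2046 ± 318) and, last, Cd1d1 (402 ± 36.5). In WT MZ the order changed, with Cd1d1 at 2463 ± 136 per kb (SD, n = 2), within the spread of H2-DMa (2429 ± 96.1) and above Ciita (1198 ± 101).

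**Figure D1:**
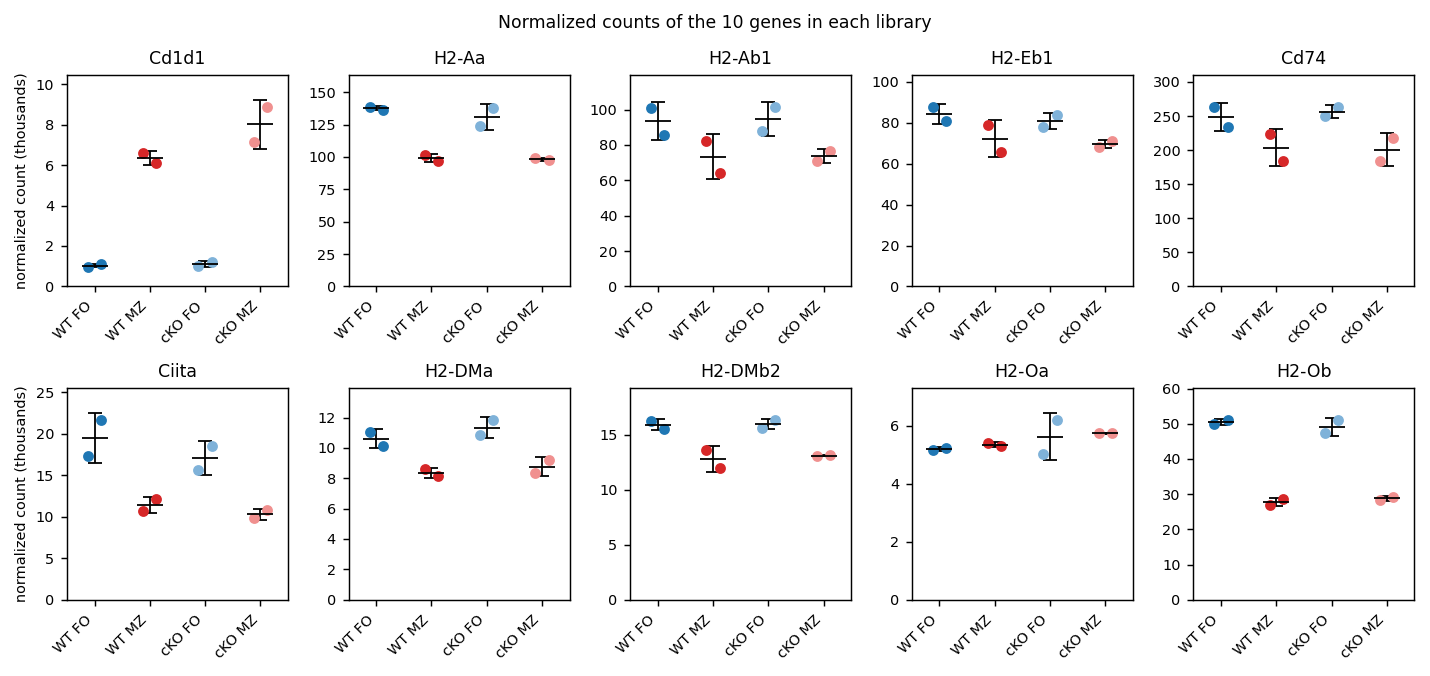
Normalized counts (in kilocounts, each vertical axis from 0) of the 10 genes in the 8 libraries, with points for libraries and black lines for the group mean and SD (n = 2). Cd1d1 lies between 968 and 1217 in the 4 FO libraries and between 6081 and 8877 in the 4 MZ libraries, while H2-Ob runs the other way and H2-Oa stays between 5042 and 6194 in all 8.

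Cd1d1 showed the largest difference of the 10 genes between FO and MZ B cells, and H2-Ob and Ciita differed in the opposite direction. A call needed a difference of at least 1.5-fold and an adjusted p (Benjamini-Hochberg, over the 14761 genes tested) no higher than 0.05, by limma on the log2 of the normalized count plus 1. In WT, 2 of the 10 genes (Ciita and H2-Ob) were called higher in FO, where 4.62% of all tested genes were, and 1 (Cd1d1) was called higher in MZ, where 7.41% were. In cKO the same 3 genes were called in the same directions, beside 5.54% of tested genes with higher levels in FO and 8.18% with higher levels in MZ. With the adjusted p alone, H2-Aa and H2-DMa joined them, giving 4 of 10 genes higher in FO in WT (7.51% of tested genes) and 4 of 10 in cKO (9.29%). For 8 of the 10 genes both FO libraries lay above both MZ libraries in WT and likewise in cKO, against 27.2% and 33.1% of tested genes. The median log2 difference of the 9 class II genes was 0.34 in WT and 0.36 in cKO, beside 0.0048 and 0.0047 over all tested genes.

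**Figure D2:**
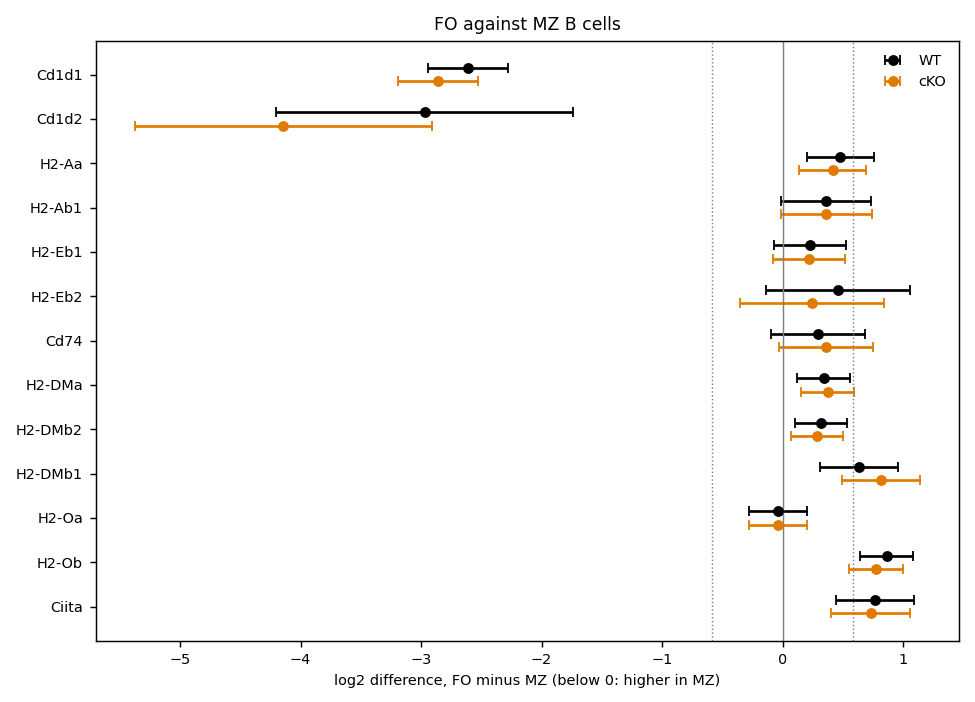
Log2 FO minus MZ difference (horizontal axis) for the 10 genes and their relatives Cd1d2, H2-Eb2 and H2-DMb1, with 95% confidence intervals from limma, in WT (black) and cKO (orange) and dotted lines at 1.5-fold. Cd1d1 (-2.61 in WT, -2.86 in cKO) and Cd1d2 lie far to the left, and H2-Oa lies at -0.04 in both genotypes. The points of the other class II genes lie to the right of 0. The intervals of H2-Ab1, H2-Eb1, H2-Eb2, Cd74 and H2-Oa span 0 in both genotypes.

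Cd1d1 (ENSMUSG00000028076.12, chromosome 3, 86995834 to 86999441 on the minus strand of GRCm38) encodes the CD1d heavy chain. It was at 968 and 1101 normalized counts in WT FO and at 6577 and 6081 in WT MZ. In cKO it was at 986 and 1217 in FO and at 7162 and 8877 in MZ, so that the lowest MZ library was far above the highest FO library in each genotype. It was 6.12-fold higher in MZ than in FO in WT (95% interval 4.86 to 7.71, limma adjusted p = 7.06e-05) and 7.27-fold higher in cKO (5.78 to 9.16, limma adjusted p = 4.16e-05). Beside the class II pathway, Cd1d1 counts came to 0.14% to 0.176% of the summed counts of the 9 class II genes in the FO libraries and to 1.19% to 1.67% in the MZ libraries.

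Cd1d2, the neighbouring copy, is known not to give a functional surface molecule in C57BL/6 mice. It was at 9.98 and 9.51 normalized counts in WT FO, at 72.2 and 96.0 in WT MZ, at 3.36 and 13.1 in cKO FO and at 125 and 152 in cKO MZ. It was called higher in MZ in both genotypes (log2 difference FO minus MZ -2.97 in WT and -4.14 in cKO, on a scale where the added pseudocount shrinks low values, limma adjusted p = 0.0088 and 0.00189). Of the 50-base stretches of the annotated Cd1d2 transcripts, 31% also occur in Cd1d1 transcripts, and 19.1% of those of Cd1d1 occur in Cd1d2, so reads of this length cannot always be placed in 1 of the 2 genes. How the counting treated such reads is not given in the sources used here.

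Among the genes whose log2 levels followed Cd1d1 most closely over the 8 libraries were Gramd1b, Lair1, Cr2 and Bzw2 (Pearson r 0.996 to 0.997 each). For the mean of the 9 class II genes they were Smpd2, Kat8, Marveld2, Ets1 and Akt2-ps (Pearson r from 0.99 to 0.995). These correlations are descriptions over 8 libraries that share the FO and MZ split.

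Among the class II chains, H2-Aa (ENSMUSG00000036594.15), the α chain of I-A, was at 138652 and 136344 normalized counts in WT FO and at 101166 and 96710 in WT MZ. The cKO libraries were at 123880 and 137790 in FO and at 98890 and 97481 in MZ, again without overlap. The difference was 1.39-fold in WT (95% interval 1.15 to 1.69, limma adjusted p = 0.0327) and 1.33-fold in cKO (1.10 to 1.61, limma adjusted p = 0.0483), past the adjusted p but under 1.5-fold. That p was not stable, lying between 0.0569 and 0.136 in WT and between 0.0629 and 0.216 in cKO when any 1 of the 8 libraries was left out (limma). Its partner H2-Ab1 (ENSMUSG00000073421.6), the β chain of I-A, was at 101121 and 85748 in WT FO, at 82205 and 64254 in WT MZ, at 87789 and 101540 in cKO FO and at 70695 and 76374 in cKO MZ. Its FO libraries stood above its MZ libraries in each genotype, but the replicates lay further apart and the difference did not pass (1.28-fold in WT, 95% interval 0.987 to 1.66, and 1.28-fold in cKO, 0.990 to 1.67). The ratio of H2-Aa to H2-Ab1 per kb was 0.918 to 1.08 in the FO libraries and 0.832 to 1.02 in the MZ libraries.

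H2-Eb1 (ENSMUSG00000060586.11) encodes the β chain of I-E, whose α chain gene is known to be defective in C57BL/6 mice. It was transcribed at the level of the I-A genes, at 87795 and 80962 normalized counts in WT FO, at 78814 and 65816 in WT MZ, at 78041 and 83746 in cKO FO and at 68250 and 71146 in cKO MZ. Its FO libraries were above its MZ libraries in each genotype by 1.17-fold and 1.16-fold, which did not pass (limma adjusted p = 0.284 and 0.288). The α chain gene, listed as H2-Ea-ps and singled out after its values were seen, was between 7.97 and 16.1 normalized counts in all 8 libraries. H2-Eb2, the neighbouring β chain gene, was at 3149 to 6563 and had log2 differences of 0.46 in WT and 0.24 in cKO (limma adjusted p = 0.281 and 0.556).

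Cd74, the invariant chain gene on chromosome 18, was at 263445 and 234154 normalized counts in WT FO and at 222951 and 184620 in WT MZ. The cKO libraries were at 249304 and 263319 in FO and at 183290 and 217528 in MZ. Both FO libraries lay above both MZ libraries in each genotype, by 1.22-fold in WT and 1.28-fold in cKO, and neither difference passed (limma adjusted p = 0.291 and 0.180). The ratio of Cd74 to the summed H2-Aa, H2-Ab1 and H2-Eb1 levels per kb was 1.26 to 1.39 in the FO libraries and 1.23 to 1.41 in the MZ libraries, so the ranges overlapped.

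H2-DMa and H2-DMb2 encode chains of the peptide editor H2-DM. H2-DMa (ENSMUSG00000037649.10) was at 11033 and 10150 normalized counts in WT FO, at 8608 and 8140 in WT MZ, at 10841 and 11827 in cKO FO and at 8329 and 9200 in cKO MZ. It was 1.26-fold higher in FO in WT and 1.29-fold in cKO (limma adjusted p = 0.0484 and 0.0314), past the adjusted p but not 1.5-fold. Leaving out any 1 library gave a limma adjusted p of 0.0664 to 0.207 in WT, and in cKO it was 0.0681 to 0.197 without any 1 of the 4 cKO libraries. H2-DMb2 (ENSMUSG00000037548.15) was at 16252 and 15522 in WT FO, at 13636 and 11939 in WT MZ, at 15603 and 16304 in cKO FO and at 13061 and 13115 in cKO MZ. Its log2 differences of 0.32 in WT and 0.29 in cKO fell short of the adjusted p (limma adjusted p = 0.0565 and 0.0706). The other β chain copy, H2-DMb1, was called higher in FO in both genotypes, at 7192 and 5702 against 4536 and 3765 in WT, and at 6719 and 5978 against 3497 and 3709 in cKO (1.55-fold and 1.76-fold, limma adjusted p = 0.0199 and 0.00635). Its call was lost in WT without WT FO replicate 1 or WT MZ replicate 2 (limma adjusted p = 0.0948 and 0.0932) and in cKO without cKO FO replicate 1 or cKO MZ replicate 1 (0.0549 and 0.0577). The WT call of H2-DMb1 was also lost with quantile normalization (log2 difference 0.53, under 1.5-fold) and in the fit of only the 4 WT libraries (limma adjusted p = 0.0884). The H2-DMb2 to H2-DMb1 ratio per kb was 2.17 to 2.62 in the FO libraries and 2.89 to 3.59 in the MZ libraries, without overlap. Of the 50-base stretches of H2-DMb1 transcripts, 22.7% also occur in another gene's transcripts, all of them in H2-DMb2, so the split of reads between these copies is uncertain.

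Of the chains of H2-O, the inhibitor of H2-DM, the β chain was called and the α chain was not, and their ratio within a library did not overlap between FO and MZ. H2-Ob (ENSMUSG00000041538.16), the β chain, was at 49799 and 51020 normalized counts in WT FO and at 26988 and 28595 in WT MZ. In cKO it was at 47379 and 50945 in FO and at 28351 and 29185 in MZ. The replicates were close and the FO libraries stood well above the MZ libraries, by 1.81-fold in WT (95% interval 1.56 to 2.12, limma adjusted p = 0.00119) and 1.71-fold in cKO (1.46 to 1.99, limma adjusted p = 0.00162). H2-Oa (ENSMUSG00000024334.9), the α chain, was at 5158 and 5242 in WT FO, at 5408 and 5288 in WT MZ, at 5042 and 6194 in cKO FO and at 5734 and 5758 in cKO MZ. Its difference was -0.04 on the log2 scale in each genotype (95% interval -0.28 to 0.20 in both, limma adjusted p = 0.84 and 0.825), and 0.11 in cKO without cKO FO replicate 1. The WT MZ libraries lay above the WT FO libraries by a narrow margin, as 28.2% of tested genes did (32.0% in cKO, where H2-Oa overlapped). The H2-Ob to H2-Oa ratio per kb was 2.15 to 2.55 in the 4 FO libraries and 1.29 to 1.41 in the 4 MZ libraries. The ratio of the summed H2-O genes to the summed H2-DM genes per kb was 0.77 to 0.868 in FO and 0.682 to 0.794 in MZ, and these ranges overlapped.

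**Figure D3:**
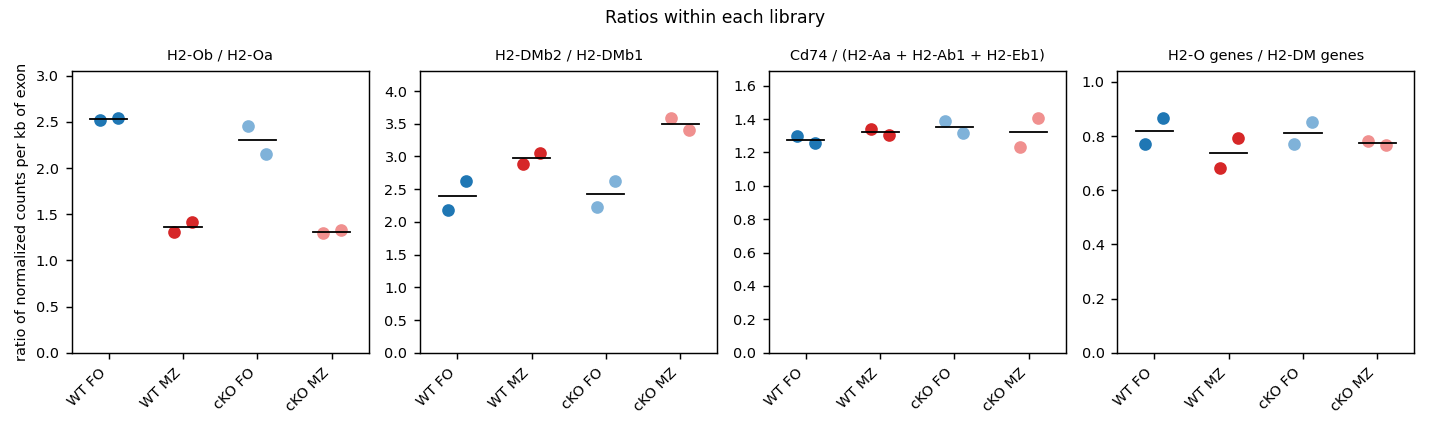
Ratios of normalized counts per kb of exon within each of the 8 libraries, on axes from 0, with points for libraries and lines for group means. H2-Ob to H2-Oa is 2.15 to 2.55 in FO and 1.29 to 1.41 in MZ, H2-DMb2 to H2-DMb1 runs the other way, and the ratios of Cd74 to the chains and of H2-O to H2-DM overlap between FO and MZ.

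Ciita (ENSMUSG00000022504.10, chromosome 16, 10480059 to 10528418) was at 17369 and 21653 normalized counts in WT FO and at 10741 and 12108 in WT MZ. In cKO it was at 15624 and 18570 in FO and at 9807 and 10787 in MZ. The FO libraries were above the MZ libraries in each genotype, by 1.7-fold in WT (95% interval 1.36 to 2.13, limma adjusted p = 0.0096) and 1.66-fold in cKO (1.32 to 2.07, limma adjusted p = 0.0103). Ciita was higher in FO in all 19 settings run (the one described and its alternatives), but the call rested on single libraries. Without WT MZ replicate 1 the limma adjusted p in WT was 0.0503, and in cKO it was 0.0695 without cKO FO replicate 2 and 0.0851 without cKO MZ replicate 1. The calls of Cd1d1 held in 19 of 19 settings in each genotype, and those of H2-Ob in 18 of 19, all but the 2-fold cutoff.

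CIITA does not bind DNA itself and acts through factors at the X and Y boxes upstream of class II genes. RefSeq promoter windows (GRCm38.p6, 250 bases before to 50 after a start) were at hand for 6 of the 10 genes and for H2-DMb1 and H2-Eb2, in 9 windows. The stretches that hold the Y box are shown for 5 genes, all in the class II region of chromosome 17 (34092340 to 34341412, from H2-Oa to H2-Eb2), because these genes share this element and have different FO to MZ folds. Each runs 5′ to 3′ on the gene's strand, and capitals mark matches to CCTNGNAAC (X box core), AACNNATG (the 3′ part of the X box) or CCAATCA (Y box, here on the opposite strand as TGATTGG).
H2-Ob, chr17:34238806-34238867, plus strand: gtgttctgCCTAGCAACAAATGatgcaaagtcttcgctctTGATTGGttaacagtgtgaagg
H2-Oa, chr17:34092294-34092340, plus strand: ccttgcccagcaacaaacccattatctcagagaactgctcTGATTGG
H2-Aa, chr17:34287852-34287913, minus strand: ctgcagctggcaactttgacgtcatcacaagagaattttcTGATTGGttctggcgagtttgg
H2-Eb1, chr17:34305766-34305827, plus strand: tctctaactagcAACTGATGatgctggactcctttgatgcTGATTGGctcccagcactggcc
H2-DMb2, chr17:34145117-34145178, plus strand: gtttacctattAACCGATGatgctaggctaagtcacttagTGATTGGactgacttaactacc

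CCAAT on either strand was in 8 of the 9 windows and in 37.4% of the 32851 windows of all genes. The longer CCAATCA was in 7 of 9 windows (7.82% of all windows) and AACNNATG in 5 of 9 (8.86%), and the latter pair of patterns was chosen after the sequences were seen. CCTNGNAAC was in 2 of 9 windows (4.85%), those of H2-Ob and H2-DMb1, where it overlaps AACNNATG. In the 5 windows with both, 18 to 21 bases lay between AACNNATG and TGATTGG. H2-Ob, which was higher in FO, and H2-Oa, which was not, both hold TGATTGG, and these matches are descriptions of letters only.

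The other genes of these pathways were followed in lists of 58 reported genes in all, 48 of them beyond the 10. Of the 48, 2 were called higher in FO and 8 higher in MZ in WT, beside 4.62% and 7.41% of all tested genes, and 4 and 7 in cKO, beside 5.54% and 8.18%. Class II transcription held Ciita and 7 partners, the subunits of RFX and NF-Y and Creb1. Nfya, the DNA-contacting subunit of NF-Y, was called higher in FO in cKO (log2 difference 0.62, limma adjusted p = 0.00481), and in WT it passed the adjusted p at 0.58, just under 1.5-fold. The cKO value was 0.55, under 1.5-fold, without cKO MZ replicate 2, and the WT value 0.67 without WT FO replicate 2 and 0.64 without WT MZ replicate 2, past it. With quantile normalization the Nfya difference in cKO was 0.50, also under 1.5-fold. The RFX genes Rfx5, Rfxank and Rfxap were not called and lay between -0.09 and 0.29 in both genotypes.

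Among the endosomal genes the calls were for higher levels in MZ B cells, while Ctsh, which encodes cathepsin H, was higher in FO by just under 1.5-fold. Of 10 genes, 0 were called higher in FO in either genotype and 4 were called higher in MZ in WT (Ctsb, Ctsz, Ctsc and Lgmn) and 3 in cKO (Ctsb, Ctsc and Lgmn). Over all tested genes 7.41% were called higher in MZ in WT and 8.18% in cKO. Ctsb, which encodes cathepsin B, was at 2292 and 2441 normalized counts in WT FO and at 5681 and 5615 in WT MZ (log2 difference -1.26, limma adjusted p = 0.000118). In cKO it was at 2574 and 2550 in FO and at 5591 and 5861 in MZ, so the groups lay far apart in both genotypes. Lgmn, which encodes an asparagine endopeptidase, differed by -0.86 in WT and -0.77 in cKO (limma adjusted p = 0.00318 and 0.00437). Ctss, which encodes cathepsin S, the enzyme that completes invariant chain cleavage in B cells, was at 14768 to 17795 in all 8 libraries and differed by -0.02 and -0.06 (limma adjusted p = 0.94 and 0.734). In WT, Ctsz and Ctsc (-0.65 each) came under 1.5-fold without 1 library, Ctsz at -0.57 without WT FO replicate 2 and Ctsc at -0.55 without WT MZ replicate 1. Ctsh was at 9980.4 and 10252 normalized counts in WT FO, at 6834 and 7580.2 in WT MZ, at 8731 and 10646 in cKO FO and at 6631 and 6909 in cKO MZ, without overlap (log2 difference 0.49 and 0.51, limma adjusted p = 0.0221 and 0.0169). The median of the list was -0.18 in WT and -0.15 in cKO.

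The lipid list held Cd1d1, Cd1d2 and 11 more reported genes of lipid transfer, lysosomal lipid enzymes and AP-3, the adaptor that brings CD1d to lysosomes. Of these 13 genes, 4 were called higher in MZ in WT and 5 in cKO, beside 7.41% and 8.18% of all tested genes. Cd1d1 and Cd1d2, which share part of their sequence, were among them in both genotypes. The others called were Psap and Gm2a in both genotypes and Mttp in cKO. Psap, whose saposins lift lipids onto CD1d, was at 13172 and 15170.5 normalized counts in WT FO and at 33020 and 35934 in WT MZ (log2 difference -1.28, limma adjusted p = 0.00047). The cKO libraries were at 13185 and 14480 in FO and at 31674 and 35270 in MZ, with no overlap in either genotype (log2 difference -1.27, limma adjusted p = 0.000421). Gm2a, the GM2 activator, was also higher in MZ (-0.81 in WT and -0.91 in cKO, limma adjusted p = 0.00172 and 0.000936). Mttp, the microsomal transfer protein that loads CD1d in the endoplasmic reticulum, was called in cKO (-1.22, limma adjusted p = 0.0156) and not in WT (-0.88, limma adjusted p = 0.0564). Leaving out any 1 cKO library took the Mttp call away in cKO (limma adjusted p from 0.0524 to 0.118). The AP-3 genes were not called and lay between -0.18 and 0.49.

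**Figure D4:**
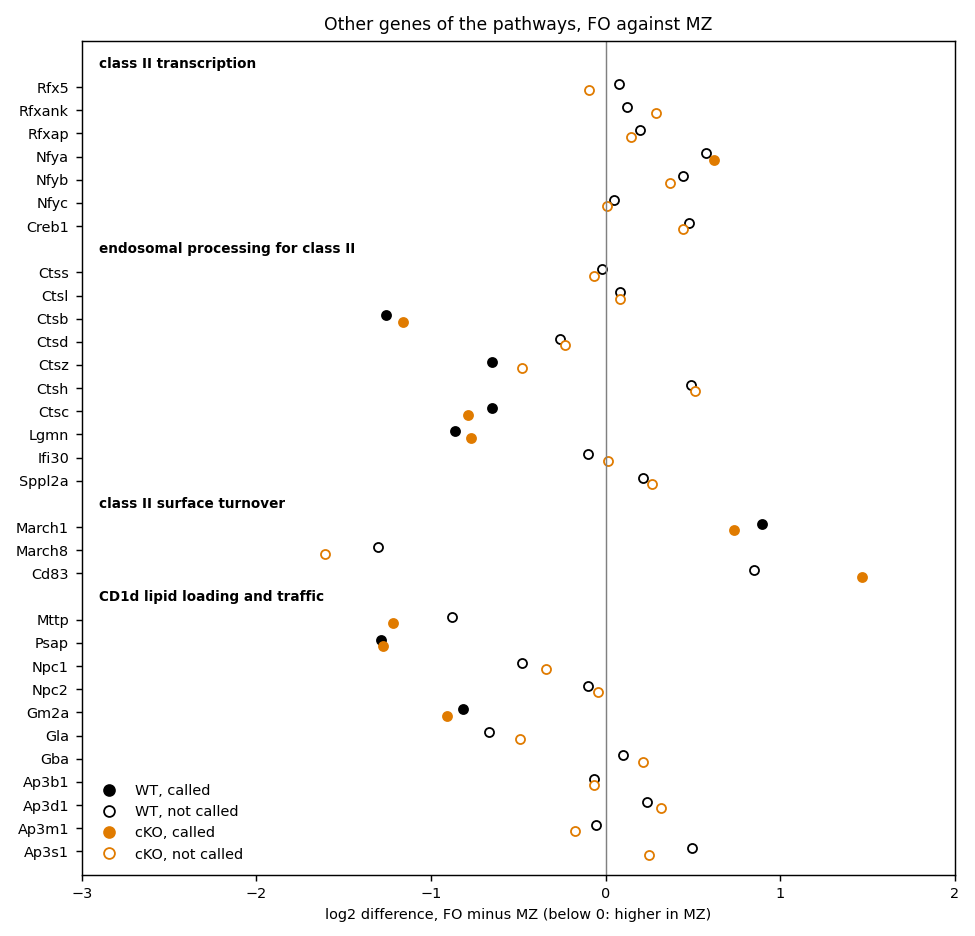
Log2 FO minus MZ difference (horizontal axis) for the other genes of class II transcription, endosomal processing, class II turnover and CD1d lipid loading, with 1 point for WT (black) and 1 for cKO (orange) per gene, filled where the adjusted p and 1.5-fold were passed. Ctsb, Ctsc, Lgmn, Psap and Gm2a lie to the left of 0 and filled in both genotypes, and March1 lies to the right and filled in both.

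Class II turnover was followed by 3 genes. March1 encodes the ubiquitin ligase that sends surface class II to lysosomes, and it was higher in FO, at 8322 and 8559 normalized counts against 3994 and 5133 in WT and at 7370 and 8731 against 4854 and 4798 in cKO. Its log2 differences were 0.90 and 0.73 (limma adjusted p = 0.00395 and 0.00823). In cKO the limma adjusted p was 0.0567 without cKO FO replicate 2, 0.0586 without cKO MZ replicate 1 and 0.0544 without cKO MZ replicate 2. The cKO call of March1 was also lost with quantile normalization (log2 difference 0.57, under 1.5-fold). Cd83, whose product opposes March1, was called higher in FO in cKO, at 15065 and 12288 against 4209 and 5761 (log2 difference 1.47, limma adjusted p = 0.0179). In WT its libraries overlapped, at 15135 and 8247 in FO and 7837 and 4885 in MZ, and the difference of 0.85 did not pass (limma adjusted p = 0.121). The cKO call was lost without any 1 of the cKO libraries (limma adjusted p from 0.0503 to 0.13), and in WT the difference passed without WT FO replicate 2 (limma adjusted p = 0.0353). March8 was low, at 14 to 122 normalized counts, and was not called.

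Class I genes served for comparison. Of 14 genes, 0 were called higher in FO and 1 was called higher in MZ in WT, and 0 were called in cKO, with list medians of -0.05 and 0.05. Over all tested genes 4.62% and 7.41% were called higher in FO and in MZ in WT, and 5.54% and 8.18% in cKO. The gene called was Nlrc5, the class I counterpart of Ciita, at 4096 and 5384 normalized counts in WT FO and at 6709 and 7800 in WT MZ (log2 difference -0.62, limma adjusted p = 0.0294). In cKO it differed by -0.41 (limma adjusted p = 0.1). The WT call was lost without WT FO replicate 1, WT MZ replicate 2 or either cKO MZ library (limma adjusted p = 0.134, 0.129, 0.0592 and 0.0593). B2m, the partner of both class I and CD1d, differed by -0.10 in WT and 0.09 in cKO (limma adjusted p = 0.561 and 0.573).

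The markers of other cells that carry class II were followed beside these counts. The 9 dendritic cell genes summed to 215 to 315 normalized counts in the FO libraries and to 314 to 520 in the MZ libraries, and 0 of them were at 0 in every library. The highest of them was Flt3, at 96.1 to 302 normalized counts, followed by Itgax at 15.7 to 215 and Zbtb46 at 32.3 to 75.7, while Clec9a was at most 9.96, Batf3 at most 8.15 and Clec10a at most 6.34. The 9 macrophage genes summed to 411 to 832 in FO and 472 to 1353 in MZ, the 8 T cell genes to 43.9 to 89.4 and 54.9 to 103, and the 4 plasma cell genes to 861 to 2040 and 942 to 4158. The highest plasma cell sum was that of WT MZ replicate 2, with Jchain at 3692 there and at 305 in WT MZ replicate 1. The granulocyte genes summed to 1882 in cKO MZ replicate 1 and to 44.8 to 111 in the other 7 libraries. The 6 B cell genes reported summed to 167406 to 208348. Of the 6 dendritic cell genes that passed the filter, 0 were called between FO and MZ in WT, and in cKO Flt3 was called higher in MZ (log2 difference -0.98, limma adjusted p = 0.0123) and Cd209a higher in FO (3.87, limma adjusted p = 0.0181). Itgax differed by -1.48 in WT and -1.97 in cKO (limma adjusted p = 0.224 and 0.104). The macrophage gene Spic was called higher in MZ in both genotypes (-1.31 and -1.04, limma adjusted p = 0.0078 and 0.0176). The T cell gene Trac was called higher in MZ in WT (-1.55, limma adjusted p = 0.0485), and the granulocyte genes Ngp and Camp in cKO (-4.36 and -3.43, limma adjusted p = 0.0447 and 0.0387). The plasma cell genes Sdc1 and Prdm1 were called in both genotypes in opposite directions. Sdc1 was higher in FO (2.76 and 3.22, limma adjusted p = 0.0107 and 0.00495) and Prdm1 higher in MZ (-1.90 and -1.68, limma adjusted p = 0.0246 and 0.0341). The dendritic cell and macrophage sums reached further up in MZ, and in WT they overlapped between FO and MZ. In cKO neither sum overlapped. The dendritic cell sums there were 253 and 268 in FO against 520 and 439 in MZ. The macrophage sums in cKO were 832 and 593 in FO against 1353 and 1067 in MZ. The part of such cells in the differences between FO and MZ was not tested. Without cKO MZ replicate 1, the FO minus MZ difference in cKO was -3.02 for Cd1d1 and 0.75 for H2-Ob on the log2 scale, and without cKO FO replicate 1 it was -2.71 and 0.82, with both genes called each time. For Ciita it was 0.66 and 0.85, called only without cKO FO replicate 1.

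The second question was whether deletion of Gtf2i changed these genes. Between cKO and WT, 0 of the 10 genes were called in FO, in MZ or over both subsets by limma, where 0.0677%, 0.0339% and 0.108% of tested genes were called. DESeq2 and the edgeR quasi-likelihood test on the recovered reads also called 0 of the 10 in each of these comparisons. At an unadjusted p under 0.05 there were 0 of 10 in FO, 1 of 10 (Cd1d1) in MZ and 0 of 10 over both subsets. The 9 class II genes differed by -0.19 to 0.10 in FO and by -0.15 to 0.10 in MZ on the log2 scale. Over these 9 genes the 95% intervals reached from 0.701-fold to 1.35-fold in FO and from 0.72-fold to 1.31-fold in MZ, so changes beyond these sizes were outside the intervals of each gene, while the intervals still hold smaller ones, in either direction, at 2 libraries a group.

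**Figure D5:**
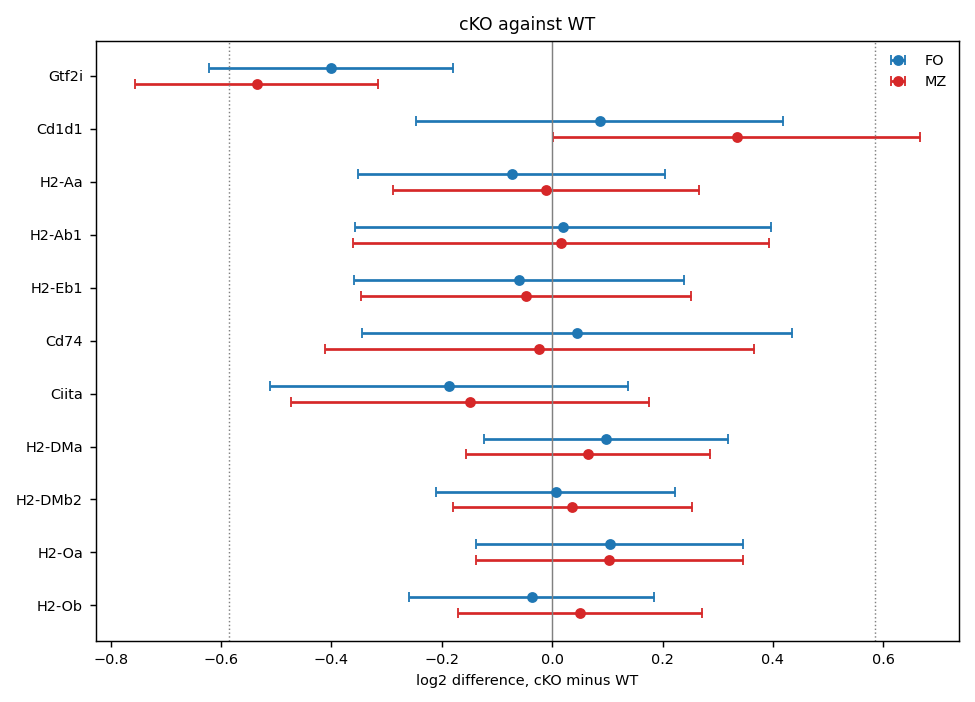
Log2 difference between cKO and WT (horizontal axis, cKO minus WT) for Gtf2i and the 10 genes in FO (blue) and MZ (red) B cells, with 95% confidence intervals from limma and dotted lines at 1.5-fold. The intervals of the 9 class II genes span 0 in both subsets, Gtf2i lies below 0 in both, and Cd1d1 in MZ lies at 0.33.

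Cd1d1 was the member with the largest difference between genotypes in MZ and over both subsets, while in FO that was Ciita. In MZ both cKO libraries (7162 and 8877 normalized counts) lay above both WT libraries (6577 and 6081), as 15.8% of tested genes did. The log2 difference was 0.33 ± 0.143 (SE, 95% interval 0.0018 to 0.67), or 1.26-fold, and did not pass over all genes (limma adjusted p = 0.998). It was 0.49 without cKO MZ replicate 1 and 0.18 without cKO MZ replicate 2 (limma adjusted p = 1 and 0.999). In FO the libraries overlapped, with a log2 difference of 0.09 (95% interval -0.25 to 0.42), and of 0.24 without cKO FO replicate 1. The difference between these differences was 0.25 (95% interval -0.22 to 0.72, limma adjusted p = 1), so it was not shown that the subsets differ. H2-Oa also had both cKO MZ libraries above both WT MZ libraries, by 0.10 on the log2 scale. In FO, 0 of the 10 genes were without overlap, against 10.9% of tested genes with both cKO libraries above and 13.1% with both below.

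Ciita was the lowest of the 10 relative to WT, at -0.19 in FO (95% interval -0.51 to 0.14) and -0.15 in MZ (-0.47 to 0.18) on the log2 scale, with overlapping libraries in both. The FO value was -0.063 without cKO FO replicate 1, and it ranged from -0.35 to -0.028 over the 19 settings run. For Ciita in MZ the range was -0.24 to -0.063. Over both subsets it was at -0.17 ± 0.0989 (SE, limma adjusted p = 0.825). The tested interaction of genotype and subset gave 0 of the 10 genes, with 0 at an unadjusted p under 0.05, and was passed by 0.0% of all tested genes by limma (94 at an unadjusted p under 0.05). DESeq2 and edgeR called 0 of the 10 in the interaction as well. None of the 58 genes of the lists was called between cKO and WT in FO, in MZ or over both subsets by limma. Among the other genes of the lists the largest difference over both subsets was that of the low gene March8, at 0.76.

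Some of these values share reads with other genes, and whether the counting used strand is not given in the sources used here. Ciita shares 329 exon bases with Dexi, H2-Oa 321 with BC051537 and H2-DMa 360 with Brd2, each on the opposite strand. Brd2 reached 15693 normalized counts in these libraries, above H2-DMa, while BC051537 reached 124.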

How the data were processed

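Total RNA of the sorted B cells was depleted of ribosomal RNA and read as 50-base single ends. The authors aligned reads with HISAT2 to mm10, counted them on genes (featureCounts and HTSeq are named in the submitters' processing notes) and normalized with DESeq2. The deposited signal is the normalized count, whole reads divided by a size factor, and whole reads were recovered for 100% of values (tolerance 0.01). The table holds 27928 genes after 256343 blank lines were left out.

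Log2(normalized count + 1) was taken for the 14761 genes whose mean reached 10 normalized counts and fitted with limma 3.58.1 (R 4.3.3, lmFit, eBayes with trend) over 8 libraries in 4 groups. Calls took 1.5-fold and an adjusted p (Benjamini-Hochberg) up to 0.05 (no fold for the interaction). Intervals are 95% and not adjusted. The comparison over both subsets is the mean of those within FO and MZ. With 2 libraries a group an exact permutation test cannot reach 0.05, so each p rests on limma's pooled spread. The tests were tried on simulated data. Positions and exon lengths are from GENCODE release 21 for mouse (27347 identifiers found with version). The 22 symbols stored as numbers or dates were restored by identifier.

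Alternatives were a pseudocount of 0.5, no filter, quantile normalization, the 4 libraries compared alone, a replicate block, the recovered reads in DESeq2 1.42.0 and edgeR 4.0.16, a 2-fold cutoff or none, and each library left out. Named genes are the 10, their relatives, Gtf2i, the sort markers, called list genes, the ends of list ranges and the 5 genes most like Cd1d1 or the class II mean. Some genes that these rules take in are not reported here, and the lists' counts and sums leave them out. The genes and lists were chosen with earlier results of these data known. The 8 ATAC-seq samples were not analysed here.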

Additional observations from a re-analysis of the deposited data

How the results depend on the processing

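The count of the 10 genes called higher in FO was 2 in each genotype. It was 4 in WT and 4 in cKO without the fold cutoff, 0 and 0 with a 2-fold cutoff, 1 in WT in the fit of only the 4 WT libraries (Ciita lost, limma adjusted p = 0.0505) and 1 in cKO with quantile normalization (Ciita lost, log2 difference 0.58). With 1 library left out it lay between 1 and 2 in each genotype. The count called higher in MZ stayed at 1, and the counts between genotypes at 0, in every setting run. Over all tested genes, the counts higher and lower in FO (682 and 1094 in WT, 818 and 1208 in cKO) were 378 and 636 in WT in the fit of its 4 libraries, 1108 and 1389 against 1371 and 1518 without the fold cutoff and 390 and 794 against 444 and 881 at 2-fold. Those in cKO were 481 and 729 without cKO FO replicate 1, 435 and 638 without cKO MZ replicate 1 and 584 and 764 without cKO MZ replicate 2. Between genotypes, the genes with higher and lower levels in cKO were 8 and 2 in FO, 5 and 0 in MZ and 14 and 2 over both subsets by limma, where DESeq2 called 19 and 6, 30 and 18, and 42 and 27, and a replicate block with the cKO MZ numbers exchanged 14 and 2, 11 and 1, and 27 and 10. With 1 library left out they were as few as 4 and 0 in FO (without WT FO replicate 1 or cKO MZ replicate 1), 5 or 6 in all in FO without WT FO replicate 2, either cKO FO library or cKO MZ replicate 2, and 8 and 0 over both subsets (without cKO MZ replicate 1), with 9 and 8 over both without cKO FO replicate 1.

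The labels do not tie replicate numbers to mice. Deviations of same-numbered libraries correlated at 0.59 between WT FO and WT MZ, at -0.0015 between cKO FO and cKO MZ, at 0.29 between WT FO and cKO FO, and at -0.30 between WT MZ and cKO MZ. With the replicate number as a block, the called members with higher levels in FO were 2 and in MZ 1 in each genotype, and 0 between genotypes. With the numbers of cKO MZ exchanged in the block, chosen after seeing the data, these counts were the same.

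Without a test passed, some small genotype differences changed sign. For H2-Aa in MZ edgeR gave 0.00080, and for H2-DMb2 in FO quantile normalization gave -0.0098, on the log2 scale. With 1 library left out, the cKO minus WT difference in FO ranged from -0.065 to 0.24 for Cd1d1, -0.15 to 0.0031 for H2-Aa, -0.10 to 0.14 for H2-Ab1, -0.040 to 0.13 for Cd74, -0.027 to 0.039 for H2-DMb2, -0.045 to 0.25 for H2-Oa and -0.089 to 0.015 for H2-Ob. In MZ it ranged from -0.043 to 0.022 for H2-Aa, -0.16 to 0.19 for H2-Ab1, -0.18 to 0.082 for H2-Eb1, -0.16 to 0.11 for Cd74, -0.0072 to 0.14 for H2-DMa and -0.059 to 0.13 for H2-DMb2. The FO minus MZ difference of H2-Oa in cKO ranged from -0.19 to 0.11.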
